A study of Homo sapiens with 2 samples.

Results

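The genes described here are those of human mitochondrial complex I whose symbols begin with NDUF. The rule that chose them used the gene symbol and no measured value, and each gene was read from its brightest probe set that carried a single gene symbol. This gave 44 genes out of 18132 with such a probe set. All 44 lay past a floor, the median of all intensities on the 2 arrays (78.0), which 10437 genes passed. They comprised 6 core subunits, 30 accessory subunits and 8 NDUFAF assembly factors. Any other gene with an NDUF symbol is not analysed here.

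The cells were HCT116, a human colorectal carcinoma line of epithelial type. One culture was given lentivirus with a single shRNA against RAP1 (shRAP1) and the other lentivirus with a negative-control shRNA (shNC), both for 72 h at 20 infectious particles per cell. Total RNA of each culture was labelled by priming at the poly(A) tail and hybridised to 1 array. With 1 array a group, no difference below has a test, a standard error or a check on a second culture. Each difference is the log2 of the authors' RMA intensity in shRAP1 minus that in shNC, so a negative one means lower after knockdown.

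Complex I oxidises NADH in the mitochondrial matrix, passes the electrons along iron-sulfur clusters to ubiquinone and pumps protons across the inner membrane. It has an N module that takes electrons from NADH and a Q module that hands them to ubiquinone, both in the matrix arm, and a membrane arm with a proximal and a distal part. Core subunits carry the catalysis and are shared with bacteria, accessory subunits surround them, and assembly factors help to build the complex but are absent from the finished enzyme. Core subunits of the membrane arm are encoded in mitochondrial DNA, and no probe set with a single symbol named any of the 7 genes of that kind.

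The targeted gene was checked first. The name RAP1 can mean TERF2IP, a telomere protein, or a pair of small GTPases. TERF2IP had an intensity of 624 in shRAP1 and 1311 in shNC, which is 47.6% of the control, while RAP1A stood at 88.0% and RAP1B at 93.3%. The epithelial markers EPCAM, CDH1, KRT8, KRT18 and KRT19 were all past the floor, with a summed intensity of 31526 in shRAP1 and 30761 in shNC. Of 4 leukocyte markers 1 passed the floor (CD79A), with a sum of 173 in shRAP1 and 165 in shNC. Of 4 fibroblast or endothelial markers 1 passed it (VWF), with sums of 244 and 238 in the same order. The defining markers PTPRC, COL1A2 and PECAM1 lay below the floor on both arrays.

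Complex I transcripts stood slightly lower after RAP1 knockdown. Of the 44 genes, 37 (84.1%) were lower and 7 higher in shRAP1, against 46.8% of all 10437 genes that were lower. Their median difference was −0.096, which is 93.6% of the control level, where the median of all genes was 0.010. Most of the family is strongly expressed: 35 of the 44 lay among the brightest genes, those past the 75th percentile of mean level, and of these 2610 bright genes 56.5% were lower with a median of −0.016. The sizes were small. At a size of at least 1.1-fold, 12 of the 44 were lower and 1 was higher, against 14.4% lower and 19.5% higher among all genes and 14.7% lower and 10.8% higher among the bright genes. At 1.2-fold, 2 were lower and 0 higher, against 3.58% and 4.96% of all genes. In bulk RNA, fewer cells that express a gene and less of its RNA per cell cannot be told apart, and after normalisation a difference is relative to the rest of the array.

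**Figure D1:**
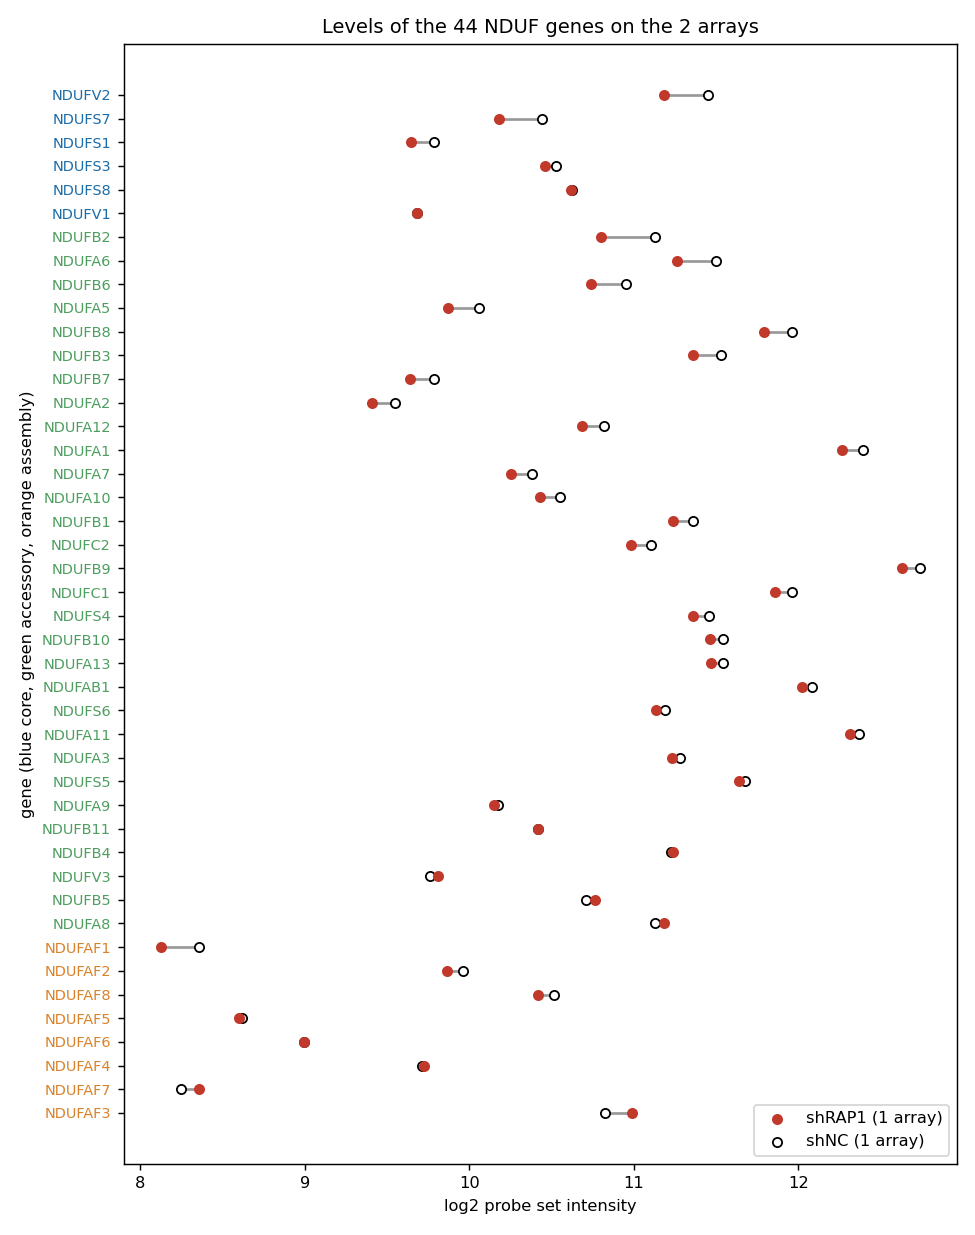
Log2 probe set intensity (horizontal axis) of each of the 44 NDUF genes (rows), with a filled red point for the shRAP1 array and an open point for the shNC array. The shRAP1 point lies left of the shNC point for 37 genes. Positions of different genes are not comparable, since each has its own probes.

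The only yardstick of error within the arrays was the agreement of different probe sets of a gene. Among 1993 bright genes that had several probe sets past the floor, the differences given by the brightest pair lay a median of 0.053 apart, and 95% of the gaps were below 0.22. The 23 NDUF genes with such a pair had a median gap of 0.045. Of the 44 members, 32 differed between arrays by more than 0.053 in size, a size that 69.7% of all genes and 62.8% of bright genes also passed. A difference of more than 0.22 was found in 5 members, against 14% of all genes and 8.77% of bright genes, so neither size sets the members apart from other genes. These 5 were NDUFB2, NDUFV2, NDUFS7, NDUFA6 and NDUFAF1, all lower in shRAP1. Such gaps leave out variation between cultures and between labelling reactions. RNA spike-ins added for labelling differed between the arrays by medians of −0.30 (dap), −0.41 (lys), −0.29 (phe) and 0.41 (thr), each larger in size than the difference of any member but NDUFB2, and their part in these results was not tested.

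The starts of 5 of these genes are shown, the 4 with the lowest difference and the 1 with the highest, chosen after the values were seen. Each run is the RefSeq sequence of assembly GRCh38.p14 from 250 bases before to 50 bases after the annotated start, written 5′ to 3′ on the gene's strand. Capitals mark letters searched on both strands: GCGCATGCG, the core of the site of nuclear respiratory factor NRF1, CCGGAAG, a site of ETS factors such as GABP, and AAGATGGCG, a site of YY1. These factors are known regulators of nuclear genes for the respiratory chain.
NDUFB2, chr7:140696458-140696757, plus strand: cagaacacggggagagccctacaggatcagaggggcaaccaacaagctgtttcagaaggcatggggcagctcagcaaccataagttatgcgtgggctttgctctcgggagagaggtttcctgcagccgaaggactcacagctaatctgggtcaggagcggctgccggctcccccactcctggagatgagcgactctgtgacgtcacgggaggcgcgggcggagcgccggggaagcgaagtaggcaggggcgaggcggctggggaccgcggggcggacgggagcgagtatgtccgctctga
NDUFV2, chr18:9102449-9102748, plus strand: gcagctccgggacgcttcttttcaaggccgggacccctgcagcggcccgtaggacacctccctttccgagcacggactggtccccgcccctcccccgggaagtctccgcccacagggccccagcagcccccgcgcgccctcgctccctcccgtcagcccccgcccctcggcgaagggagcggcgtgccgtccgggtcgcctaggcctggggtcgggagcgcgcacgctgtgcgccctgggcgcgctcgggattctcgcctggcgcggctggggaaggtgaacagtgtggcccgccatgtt
NDUFS7, chr19:1383657-1383956, plus strand: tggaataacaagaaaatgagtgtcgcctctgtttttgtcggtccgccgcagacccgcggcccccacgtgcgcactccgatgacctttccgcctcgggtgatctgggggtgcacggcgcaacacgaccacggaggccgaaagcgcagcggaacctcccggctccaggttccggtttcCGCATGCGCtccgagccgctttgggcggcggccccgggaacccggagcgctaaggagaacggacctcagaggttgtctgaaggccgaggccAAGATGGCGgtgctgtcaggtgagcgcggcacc
NDUFA6, chr22:42090723-42091022, minus strand: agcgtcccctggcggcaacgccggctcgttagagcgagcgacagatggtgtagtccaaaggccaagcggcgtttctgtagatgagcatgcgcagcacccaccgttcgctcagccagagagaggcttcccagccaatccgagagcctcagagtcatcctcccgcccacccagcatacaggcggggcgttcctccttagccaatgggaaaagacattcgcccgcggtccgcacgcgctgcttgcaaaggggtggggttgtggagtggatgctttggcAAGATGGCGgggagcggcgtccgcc
NDUFAF3, chr3:49020202-49020501, plus strand: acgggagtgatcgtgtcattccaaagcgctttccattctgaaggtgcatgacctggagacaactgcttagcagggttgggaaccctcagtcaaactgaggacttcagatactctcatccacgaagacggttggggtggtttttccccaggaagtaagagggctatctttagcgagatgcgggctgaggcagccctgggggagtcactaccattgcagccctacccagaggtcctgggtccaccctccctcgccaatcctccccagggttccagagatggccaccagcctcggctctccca

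NDUFS7 held the NRF1 letters on the opposite strand at bases 177 to 185 of the window and the YY1 letters at bases 268 to 276, past the start. NDUFA6 held the YY1 letters at bases 276 to 284. The other windows shown held none of the exact letters, which says nothing about binding there. Promoters were given for 39 of the 44 members, and 15 of these held at least 1 of the 3 motifs. The YY1 letters were in 5 of 39 member windows (12.8%), against 4.33% of 8660 windows of genes past the floor and 1.85% of all 27305 windows. The NRF1 letters were likewise in 5 of 39 (12.8%), against 3.93% and 2.10%, and the ETS letters in 6 of 39 (15.4%), against 20.1% and 10.7%. The NRF1 letters overlap their own reverse complement, so 1 place can match on both strands.

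Members with a motif had differences between −0.26 and 0.055. The 5 with the YY1 letters were NDUFS7 (−0.26), NDUFA6 (−0.24), NDUFA7 (−0.12), NDUFS4 (−0.097) and NDUFA9 (−0.023). The 5 with the NRF1 letters were NDUFS7, NDUFS6 (−0.056), NDUFAF5 (−0.022), NDUFB4 (0.011) and NDUFA8 (0.055). The 6 with the ETS letters were NDUFB7 (−0.15), NDUFS1 (−0.14), NDUFA1 (−0.12), NDUFS3 (−0.071), NDUFA13 (−0.068) and NDUFAF4 (0.014). The windows of NDUFB2 and NDUFV2, the lowest members, and of NDUFAF3 and NDUFAF7, the highest, held none of these letters. No binding was measured in these samples.

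On their brightest probe sets all 6 measured core subunits were lower in shRAP1, with a median of −0.11, and 3 by at least 1.1-fold. Among all genes 46.8% were lower, and 14.4% by this size. NDUFV1 (−0.0022) and NDUFS8 (−0.0081) were nearly level with the control. NDUFV2, an iron-sulfur subunit of the N module, had an intensity of 2325 in shRAP1 and 2802 in shNC. This difference of −0.27 on a single probe set put it at 83.0% of the control and at rank 352 from the lowest of 10437 genes. NDUFS7, whose cluster is the last of the chain before ubiquinone, had 1160 in shRAP1 and 1389 in shNC, a difference of −0.26. Its 3 probe sets past the floor lay between −0.32 and −0.23, so each was lower. A dim NDUFS7 probe set below the floor, at 20.9 in shRAP1 and 15.8 in shNC, went the other way.

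NDUFS1, the large subunit of the N module with several iron-sulfur clusters, had 801 in shRAP1 and 882 in shNC, at 90.8% of the control. Of its 5 probe sets past the floor, 4 lay between −0.15 and −0.13, and the dimmest, at 83.3 in shRAP1 and 80.8 in shNC, was at 0.044. The remaining core subunits were close to the control. NDUFS3, a Q module subunit without a cofactor, had 1406 in shRAP1 and 1477 in shNC, a difference of −0.071. NDUFS8, which holds a pair of iron-sulfur clusters in the Q module, had 1572 in shRAP1 and 1581 in shNC, and its dimmer probe set was at 0.16. The median of its probe sets was 0.077, so the direction for NDUFS8 depends on the probe set. NDUFV1, which binds NADH and the flavin, had 820 in shRAP1 and 821 in shNC, a difference of −0.0022. NDUFV1 and NDUFV2, whose proteins sit side by side in the N module, thus stood at 99.8% and 83.0% of the control.

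**Figure D2:**
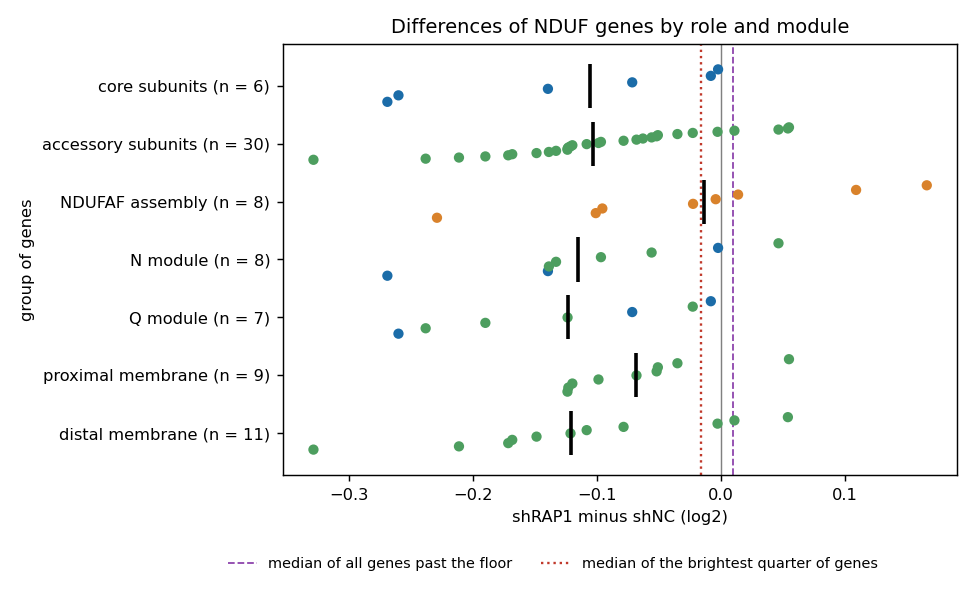
Difference of each NDUF gene, shRAP1 minus shNC in log2 units (horizontal axis), by role and by module (rows), with blue points for core, green for accessory and orange for assembly genes and a black bar at the median of each row. Genes with a module appear in both parts of the plot. The medians of core and accessory subunits are −0.11 and −0.10, that of the assembly factors is −0.013.

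Of the 30 accessory subunits, 26 were lower and 4 higher, the median was −0.10, and 8 were lower by at least 1.1-fold. Over all genes 46.8% were lower and 14.4% lower by this size, and over bright genes 56.5% and 14.7%. These shares also belong beside the module counts below. The core median minus the accessory median was −0.0020. The accessory genes are described by the part of the complex their proteins join, since that grouping does not use the expression values.

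In the N module, core genes included, 7 of 8 genes were lower and the median was −0.11. The accessory gene NDUFA2, a small thioredoxin-like subunit, had 680 in shRAP1 and 749 in shNC, a difference of −0.14. NDUFA12 had 1648 in shRAP1 and 1807 in shNC, a difference of −0.13. The assembly factor NDUFAF2 is a paralogue of NDUFA12, and it differed by −0.10 (930 in shRAP1 and 998 in shNC). Subunit and paralogue were thus both lower. NDUFS4, whose loss causes Leigh syndrome, was at 93.5% of the control, and the zinc-binding NDUFS6 at 96.2%. NDUFV3 was the exception, with 896 in shRAP1 and 867 in shNC and 3 probe sets between 0.0048 and 0.11.

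In the Q module 7 of 7 genes were lower, and the median was −0.12. NDUFA6, a subunit of the LYR family that anchors the acyl carrier protein to the complex, had 2457 in shRAP1 and 2897 in shNC, a difference of −0.24 at 84.8% of the control. NDUFA5 had 934 in shRAP1 and 1066 in shNC, a difference of −0.19. NDUFA7 differed by −0.12. NDUFA9, a subunit at the junction of the arms that binds NADPH, was the nearest to the control among the accessory genes of this module, with 1136 in shRAP1 and 1154 in shNC.

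On the brightest probe sets, the proximal membrane part had the smallest spread of the 4 modules, an SD over its genes of 0.058. The SD was 0.097 in the N module, 0.10 in the Q module and 0.11 in the distal part. Of the 9 proximal genes 8 were lower, the median was −0.068, and 0 differed by 1.1-fold in either direction on these probe sets. NDUFA1, a small membrane subunit encoded on the X chromosome, had 4930 in shRAP1 and 5371 in shNC, a difference of −0.12. NDUFA10 and NDUFC2 also stood at −0.12 and NDUFC1 at −0.099. For NDUFC2 the second probe set past the floor gave −0.55, with 92.3 in shRAP1 and 135 in shNC, both close to the floor. The size for NDUFC2 thus depends on the probe set read, and its direction does not. The dimmer probe sets of NDUFA10 gave −0.17 and −0.14. With the median of their probe sets, NDUFA10 (−0.14) and NDUFC2 (−0.34) both passed 1.1-fold. The count of 0 and the small spread thus hold for the brightest probe sets and not for every reading. NDUFA13, also known as GRIM-19, was at −0.068, NDUFA11 at −0.052, NDUFA3 at −0.051 and NDUFS5 at −0.035. NDUFA8 was the 1 higher member, with 2325 in shRAP1 and 2238 in shNC.

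The distal membrane part held the largest single difference. Of its 11 genes, 9 were lower, with a median of −0.12, and 5 were lower by at least 1.1-fold. The shares of all genes were 46.8% and 14.4%. NDUFB2 had 1786 in shRAP1 and 2243 in shNC, at 79.6% of the control. Its difference of −0.33 rested on 1 probe set and was the lowest of the family, at rank 186 from the lowest of all genes. NDUFB6 differed by −0.21, with its other probe set at −0.15. NDUFB8, a subunit often used as a protein marker of assembled complex I, had 3539 in shRAP1 and 3985 in shNC, and its probe sets gave −0.17 and −0.15. These genes were lower on every probe set past the floor. NDUFB3 gave between −0.22 and −0.13 on 3 probe sets, and NDUFB7 gave −0.15 on its 1 probe set.

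Other distal genes were nearer to the control. NDUFB1 was at −0.12, NDUFB9 at −0.11 and NDUFB10 at −0.078. The X-encoded NDUFB11 gave −0.0027 on its brightest probe set, with 1368 in shRAP1 and 1370 in shNC, and −0.16 on the other. NDUFB4 gave 0.011 on 2 probe sets with the same values, at 2416 in shRAP1 and 2398 in shNC, and −0.079 on a dimmer one. Whether these genes were level with the control or below it thus depends on the probe set. NDUFB5 was the highest of this part, with 1741 in shRAP1 and 1677 in shNC, a difference of 0.054. NDUFAB1, the mitochondrial acyl carrier protein, which binds to both arms and also serves fatty acid synthesis, had 4155 in shRAP1 and 4340 in shNC, a difference of −0.063. The distal genes thus ran from the lowest of the family to values just above the control.

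**Figure D3:**
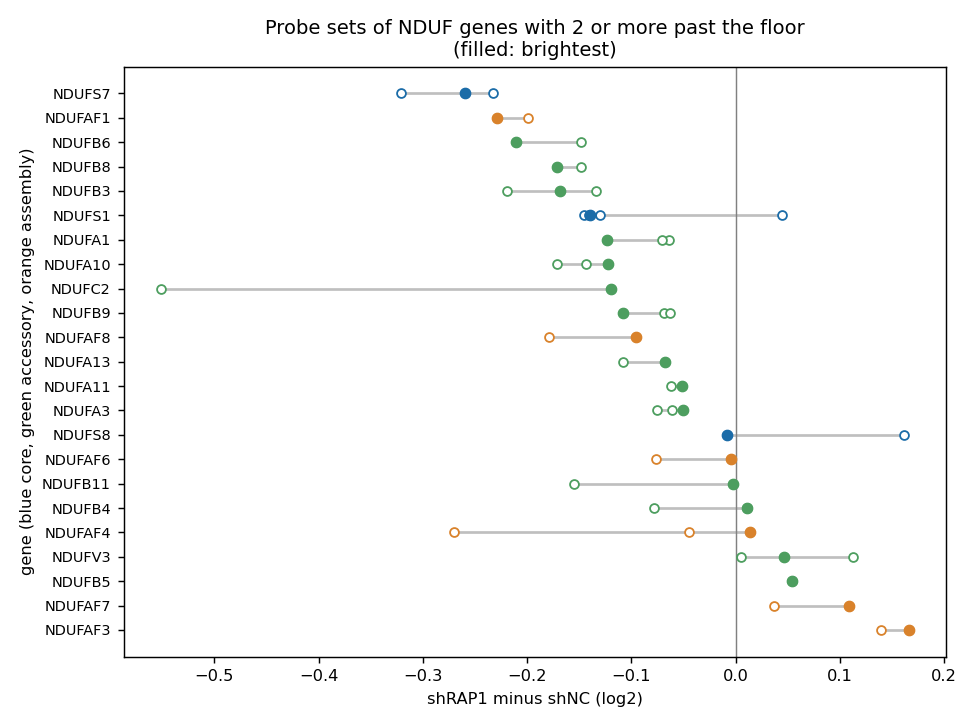
Differences of every single-symbol probe set past the floor, shRAP1 minus shNC in log2 units (horizontal axis), for the 23 NDUF genes that have at least 2 (rows), with the brightest filled. For 15 genes all points lie below 0, for 4 all lie above 0, and for 4 they lie on both sides.

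The median of the 8 NDUFAF genes lay near 0. Of these, 5 were lower and 3 higher, where 46.8% of all genes and 56.5% of bright genes were lower. Their median of −0.013 was 0.090 above that of the accessory subunits. Taking the median over the probe sets of each gene gave a gap of 0.050, and setting the brightest probe sets against a trend through all genes at the same level gave 0.062. They ran from −0.23 to 0.17, a range that holds all but 4 of the 36 subunits. NDUFAF1, a factor of the assembly complex that builds the membrane arm, had 280 in shRAP1 and 328 in shNC. Its difference of −0.23, with the other probe set at −0.20, was the lowest of the group.

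NDUFAF3 was the highest member of the whole family. It had 2033 in shRAP1 and 1812 in shNC, at 112% of the control, with probe sets at 0.17 and 0.14. It ranked 1505 from the highest of 10437 genes, so many other genes differed by more. NDUFAF4, its binding partner in building the Q module, had 848 in shRAP1 and 840 in shNC, a difference of 0.014. Its dimmer probe sets gave −0.045 and −0.27, the latter close to the floor at 83.0 in shRAP1 and 100 in shNC. The brightest probe set of NDUFAF4 was level with the control, and the dimmer ones were lower. NDUFAF7, a methyltransferase, had 328 in shRAP1 and 304 in shNC, a difference of 0.11, and a second probe set past the floor gave 0.036. A dim NDUFAF7 probe set below the floor was at −0.29.

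NDUFAF5 and NDUFAF8 work together, as NDUFAF5 hydroxylates an arginine of NDUFS7 and NDUFAF8 stabilises NDUFAF5. NDUFAF5 had 388 in shRAP1 and 394 in shNC, and NDUFAF8 had 1369 in shRAP1 and 1463 in shNC, with probe sets at −0.096 and −0.18. Their substrate NDUFS7 was lower than either at −0.26. NDUFAF6 had 509.5 in shRAP1 and 511 in shNC on its brightest probe set, a difference of −0.0042. Its second probe set had 369 in shRAP1 and 389 in shNC, a difference of −0.076, and a pair below the floor stood at −0.50 and −0.11.

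Probe sets of a gene mostly had the same sign. Of the 79 single-symbol NDUF probe sets past the floor, 64 were lower and 15 higher (median −0.096). Counted by gene, 46.8% of all genes and 56.5% of bright genes were lower. Among the 23 NDUF genes with 2 or more such probe sets, 15 had every one lower, 4 every one higher and 4 both signs. Those with both signs were NDUFS1, NDUFS8, NDUFB4 and NDUFAF4. How often the probe sets of other genes share a sign was not counted, so this agreement is not shown to be particular to NDUF genes. Probe sets of a gene can share probes and come from the same hybridisation, so they are not replicates of the cultures. The other 21 genes rested on 1 probe set, among them NDUFB2, NDUFV2 and NDUFA6.

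**Figure D4:**
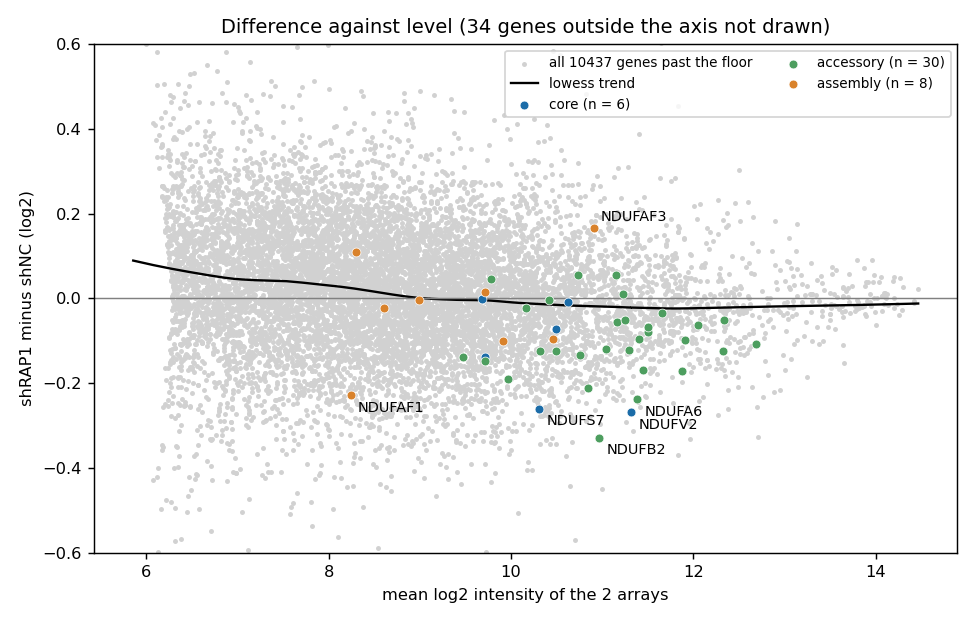
Difference, shRAP1 minus shNC in log2 units (vertical axis), against mean log2 intensity (horizontal axis) for 10437 genes in grey, with NDUF core, accessory and assembly genes in blue, green and orange and the lowess trend in black. Most coloured points lie below the trend, and 34 genes beyond 0.6 in size fall outside the axis.

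Bright genes as a whole leaned lower, so each member was also set against a lowess trend through all genes at its level. After this 34 of 44 members were below the trend, against 50.4% of all genes, and 10 were lower by at least 1.1-fold, against 16.2% of all genes. NDUFB2 was then at −0.31, NDUFAF1 at −0.25, NDUFV2 and NDUFS7 at −0.25 and NDUFA6 at −0.22. NDUFV1, NDUFS8 and NDUFB11 crossed to values just above 0, at 0.0019, 0.0086 and 0.012. Across the 44 members the Pearson correlation of mean level and difference was −0.14, and across all 10437 genes it was also −0.14. Genes on one pair of arrays are not independent replicates.

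Genes of the rest of the respiratory chain mostly had values just below 0. Among the 36 core and accessory subunits of complex I, 32 were lower and 4 higher. The same counts held for the 36 measured genes of complexes II to V. At any size, 46.8% of all genes and 56.5% of bright genes were lower. The median was −0.10 in complex I and −0.054 in complexes II to V. At 1.1-fold, 11 of the 36 complex I subunits were lower, against 4 of the 36 others. The share of genes lower by this size was 14.4% over all genes and 14.7% over bright genes, so the count in complexes II to V was not above the background. The medians by complex were −0.046 for II (3 genes), −0.060 for III (8), −0.049 for IV (10) and −0.094 for V (15). The lowest members were SDHD, a membrane anchor of complex II, at −0.20 and ATP5F1C, the central stalk of ATP synthase, at −0.19. The 5 probe sets of SDHD ran from −0.21 to −0.071. Those of ATP5F1C, 3 in number, ran from −0.19 to 0.015, so its direction depends on the probe set. ATP5MC2, of its rotor ring, was the highest at 0.093. All these values come from the same pair of arrays, and no test of the difference between the complexes was possible.

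**Figure D5:**
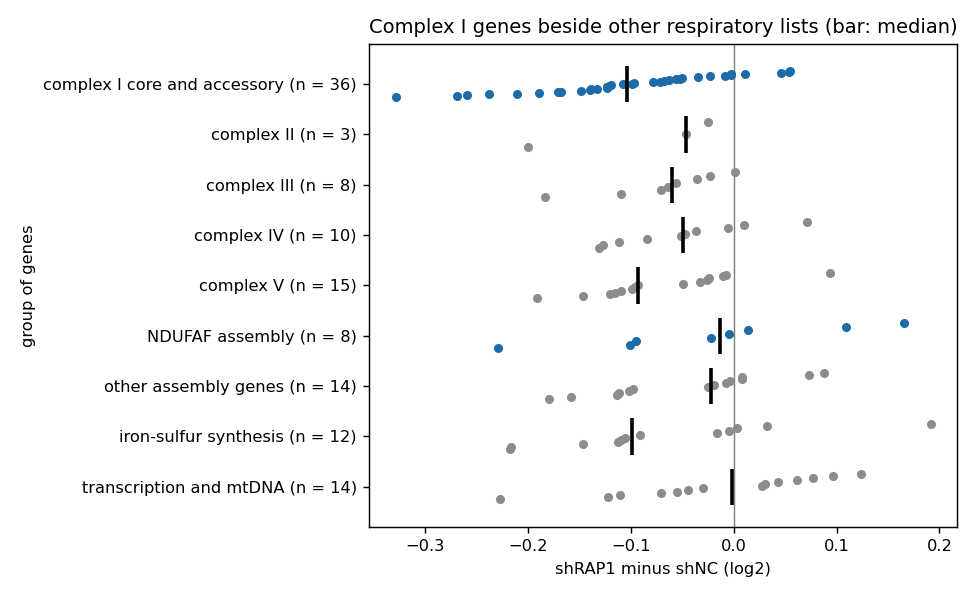
Differences of the complex I genes (blue) and of other lists of the respiratory chain (grey), shRAP1 minus shNC in log2 units (horizontal axis), with a black bar at the median of each row. The complex I subunits have the lowest median, −0.10, beside −0.099 for iron-sulfur cluster synthesis and −0.094 for complex V.

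Assembly genes with other names had a median of −0.022, close to that of the NDUFAF group. Of 14 measured, 10 were lower and 4 higher, where 46.8% of all genes and 56.5% of bright genes were lower. AIFM1, a flavoprotein needed for import of respiratory subunits, had 496 in shRAP1 and 562 in shNC, a difference of −0.18, and TMEM126A was at −0.16. OXA1L, which inserts proteins into the inner membrane, was the highest at 0.088. ACAD9, ECSIT and TMEM126B, which are among the partners of NDUFAF1 in its complex, were nearer to the control on their brightest probe sets. ACAD9 was at 0.0085, ECSIT at −0.098 and TMEM126B at −0.10. The 4 probe sets of ACAD9 reached down to −0.15 and the 3 of TMEM126B to −0.20. The second NDUFAF1 probe set also stood at −0.20.

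Complex I carries more iron-sulfur clusters than any other respiratory complex, and the genes that make these clusters are given here for that reason. Of 12 measured iron-sulfur synthesis genes, 9 were lower and 3 higher, with 46.8% of all genes and 56.5% of bright genes lower, and the median was −0.099. At 1.1-fold, 3 of the 12 were lower and 1 was higher. The shares were 14.4% and 19.5% over all genes and 14.7% and 10.8% over bright genes. NFU1 and ISCA1, which act late and deliver clusters of the kind found in complex I, both differed by −0.22. NFU1 had 834 in shRAP1 and 969 in shNC, with its other probe set at −0.24. ISCA1 had 672 in shRAP1 and 781 in shNC, and its 3 probe sets ran from −0.22 to −0.077. For NFS1, LYRM4 and GLRX5 the direction depended on the probe set. The co-chaperone gene HSCB was the highest at 0.19.

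Regulators of respiratory chain transcription and mitochondrial DNA showed no common direction. Of 14 measured, 7 were lower and 7 higher (median −0.0013), where 46.8% of all genes and 56.5% of bright genes were lower. TFAM, which packages mitochondrial DNA and starts its transcription, was the lowest at −0.23, with 365 in shRAP1 and 428 in shNC. MTERF1 was at −0.12, and ESRRA, a nuclear receptor that drives genes of oxidative metabolism, was the highest at 0.12. The genes of the factors whose motifs were searched differed by 0.077 for NRF1, −0.071 for GABPA and −0.030 for YY1. The direction for NRF1 and YY1 depended on the probe set, as the other probe set of NRF1 was at −0.10 and the 7 of YY1 ran from −0.14 to 0.28. PPARGC1A, the coactivator PGC-1α, lay below the floor on both arrays, at 15.9 in shRAP1 and 13.6 in shNC.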

How the data were processed

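The authors deposited an intensity per probe set, on a linear scale, for 2 arrays, 1 of shRAP1 and 1 of shNC. They were made with RMA, per the submitters' processing notes, whose version is not given in the sources used, nor which arrays were normalised jointly. The planned comparison is on log2 values, which were taken here with no pseudocount. Of 49293 non-control probe sets, 44988 carried 1 symbol in the platform annotation, 1832 several and 2473 none; only the first were used for genes. A probe set passed the floor where its higher value reached 78.0, and a gene was its brightest probe set past the floor. The lowess span was 0.3. Depth does not apply to arrays, and their number limits the precision. The labels call each array a biological replicate, but there is 1 per group.

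Alternatives changed how probe sets make a gene, the floor (none, or the 75th percentile), the admitted probe sets, the centring, the size counted and the summary. A median moved where it left the 95% order-statistic interval over its genes. The naming rule took all core genes, the extremes of every other part, members past 1.2-fold and those with probe sets of both signs, and 2 low and 1 high gene of each other list; further members are named so that all 44 are accounted for. Members, roles and lists were chosen with earlier results of these data known. The computation was tested on simulated data. Python 3.11.15, numpy 2.4.6, pandas 2.3.3, scipy 1.17.1, statsmodels 0.14.6 and matplotlib 3.10.9 were used.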

Additional observations from a re-analysis of the deposited data

How the results depend on the processing

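Of 90 recomputed medians and counts, 38 equalled the value reported, among them all 26 under the other floors, which every member passes. Of the 52 that differed, 50 stayed within their interval or within 1.5 times. The other pair were the counts at 1.2-fold, 2 lower and 0 higher in place of 12 and 1 at 1.1-fold. The interval is a loose bound for the core subunits, the assembly factors and the N and Q modules, where it spans all their genes. The median of all members lay between −0.11 and −0.075 and that of the assembly factors between −0.043 and −0.013. Core and accessory medians were nearly equal, and without _x_at and _s_at probe sets, which left 37 members, core stood 0.048 above accessory. That setting kept 32 of 37 members lower. Among single genes, 124 of 125 values moved by less than 0.096, the spread of 1 probe set, and NDUFC2 moved to −0.34 with the median of its probe sets, which includes a dim one at −0.55. No paired analysis was possible because each group has 1 array.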

Other observations

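Among the NDUF probe sets, 3 carried several symbols and were used for no gene. The one shared by NDUFS1 with GCSH had 2542 in shRAP1 and 2612 in shNC. The one shared by NDUFS3 and PTPMT1 had 605 in shRAP1 and 625 in shNC, and that of KCTD14 and the read-through NDUFC2-KCTD14 had 319 in shRAP1 and 321 in shNC. By place in the genome, the 44 members lay on 22 chromosomes. The 6 on chromosome 19 (NDUFA3, NDUFA7, NDUFA11, NDUFA13, NDUFB7 and NDUFS7) were all lower, between −0.26 and −0.051. Since 37 of all 44 members (84.1%) were lower, this does not set chromosome 19 apart.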
